A study of Homo sapiens with 12 samples.

Results

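In HCC70 triple-negative breast cancer cells, 34116 of the 117441 regions bound by SREBP2 were also bound by RORγ but held no called H3K27ac. The lists reach weak calls, and 22585 regions met the same rule at q of at most 0.01 and 12413 at q of at most 1e-05. These unacetylated co-bound regions were chosen by measured values: an SREBP2 region of the vehicle library on chromosomes 1 to 22 or X had to share at least 1 bp with a RORγ vehicle region and none with an H3K27ac vehicle region. They were compared with the 23419 SREBP2 vehicle regions that overlapped both RORγ and H3K27ac, called acetylated co-bound regions. A region without H3K27ac is one with no entry in the deposited H3K27ac list, which holds 97.3% of the 50000 strongest calls by peak number but only 62.0% of the next 50000, so that weak acetylation there could have gone unlisted.

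Chromatin from HCC70, an established line of the basal type, was collected 24 h after vehicle or XY018, an antagonist of RORγ used at 5 µM by the sample labels, while a lower concentration is named in the study's methods. For each of the antibodies (SREBP2, RORγ, H3K27ac) there was 1 library per treatment, so every group held 1 library and no difference between treatments has a replicate check. Both treatments were given to the same line with no genetic change stated. Depth, recovered from the peak values, lay between 3.65 and 6.16 tags per kb of genome. Of 8 genes of basal breast cells, 5 had H3K27ac at a promoter with vehicle (KRT5, KRT17, EGFR, CDH3 and FOXC1), whereas KRT14, KRT6A and KRT6B did not. Of the hormone receptor genes, ESR1 had a promoter H3K27ac region and PGR had none. Among 4 genes of other cell types COL1A1 had one, and the leukocyte genes PTPRC and CD3E and the endothelial gene PECAM1 had none.

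SREBP2 is a membrane-held transcription factor that is released when sterols run low, binds sterol regulatory elements (SREs) and switches on the genes of cholesterol synthesis and uptake. RORγ is a nuclear receptor that binds single AGGTCA half-sites preceded by A and T bases, and it is best known for its role in lymphocytes and in the circadian clock. H3K27ac, an acetylation of histone H3, marks active promoters and enhancers.

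The textbook binding elements were rare at the summits. An exact SRE, TCACNCCAC on either strand, lay within 100 bp of the SREBP2 summit in 716 regions, 2.1%, and an exact ROR element, ANTAGGTCA, in 38 regions, 0.111%. In all 117441 SREBP2 vehicle regions the same window held the SRE in 2.42% and the ROR element in 0.112%. In acetylated co-bound regions the shares were lower, at 0.892% and 0.0512%, and in windows 1 kb to either side of the unacetylated summits the shares were 1.57% and 0.340%. Regions with an exact match outside exons and a high SREBP2 fold are shown, because they are among the strongest unacetylated sites at which either element could be read. The fold is the fragment pileup at the summit plus 1 over the local background plus 1. Capitals mark the element, and each sequence (hg19) is printed on the strand that carries it.
SRE in RNF220, chr1:44873156-44873216, minus strand: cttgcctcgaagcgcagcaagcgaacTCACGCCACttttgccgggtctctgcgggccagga
SRE on chromosome X, chrX:110039108-110039168, plus strand: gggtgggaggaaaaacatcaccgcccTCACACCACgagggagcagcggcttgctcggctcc
SRE in APBA2, chr15:29395713-29395773, minus strand: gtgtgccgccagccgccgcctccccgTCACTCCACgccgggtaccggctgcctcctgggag
ROR element on chromosome 11, chr11:64513617-64513677, minus strand: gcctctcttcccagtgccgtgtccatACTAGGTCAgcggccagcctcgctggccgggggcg
ROR element in SARDH, chr9:136576748-136576808, plus strand: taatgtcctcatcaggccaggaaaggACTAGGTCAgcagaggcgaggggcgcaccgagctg
ROR element in IGF2BP1, chr17:47094067-47094127, plus strand: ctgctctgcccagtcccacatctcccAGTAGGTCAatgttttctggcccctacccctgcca

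The APBA2, SARDH and IGF2BP1 elements lay in introns. Those in RNF220, on chromosomes X and 11 lay in regions that met an annotated promoter window, which spans 1000 bp before and 100 bp after any transcript start. Fragments at the SREBP2 summit numbered 56 with vehicle and 42 with XY018 in the RNF220 region, 44 and 26 in the chromosome X region, and 34 and 23 in the APBA2 region. RORγ fragments in the same order were 73 and 57, 58 and 37, and 48 and 29. All 3 SRE regions thus kept both factors, with fewer fragments of each in the XY018 library. The ROR element regions were weaker, with 20 SREBP2 fragments with vehicle and 19 with XY018 on chromosome 11, 24 and 11 in SARDH, and 17 and 8 in IGF2BP1. Their RORγ fragments were 20 and 21, 16 and 17, and 10 and 6. None of the 6 regions had an H3K27ac region with either treatment.

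Strong unacetylated regions had CpG-dense summits more often than weak ones. The next lines give the 121 bases around the SREBP2 summit (hg19, plus strand) at 3 of the strongest gene promoters, where the window met no exon, with every CG in capitals. CDC14C encodes a phosphatase of the CDC14 family, AMPH encodes amphiphysin, which acts in synaptic vesicle uptake, and ZIC5 encodes a zinc finger factor of neural development.
CDC14C promoter, chr7:48964018-48964138, plus strand: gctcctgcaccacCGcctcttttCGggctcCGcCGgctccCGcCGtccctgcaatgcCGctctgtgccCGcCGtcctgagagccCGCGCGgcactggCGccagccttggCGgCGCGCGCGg
AMPH promoter, chr7:38670704-38670824, plus strand: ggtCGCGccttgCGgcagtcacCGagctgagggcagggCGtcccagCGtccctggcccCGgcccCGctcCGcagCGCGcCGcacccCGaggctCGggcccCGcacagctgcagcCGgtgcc
ZIC5 promoter, chr13:100624227-100624347, plus strand: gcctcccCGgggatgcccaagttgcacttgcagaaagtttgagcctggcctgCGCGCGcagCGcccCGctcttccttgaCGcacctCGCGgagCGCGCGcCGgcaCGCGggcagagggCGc

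The CDC14C window held 18 CG dinucleotides and the AMPH and ZIC5 windows 16 each. Across all unacetylated co-bound regions, the 201 bp around the summit had a median GC content of 66.2%, against 72.6% in acetylated co-bound regions and 50.7% in windows 1 kb away from the unacetylated summits. CpG-dense summits, with GC above 55% and an observed over expected CpG ratio above 0.65, made up 23.1% of unacetylated (22.6 to 23.5%, exact binomial 95% interval) and 61% of acetylated co-bound regions (60.3 to 61.6%). In the flanking windows the share was 5.69%. Within the unacetylated regions it rose from 3.43% in the lowest of 10 equal classes of SREBP2 fold to 67.4% in the highest. All intervals in the text cover counting error only.

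The GC content of the unacetylated regions had separate peaks, at 50% to 52% and at 66% to 68%, and the split at 60% used next was set after that shape was seen. The 10764 regions below 60% GC, 31.6% of the total, had a median SREBP2 fold of 3.45 and 5.31% of them lay at promoters. The 23352 regions at or above it had a median fold of 7.65, with 26.7% at promoters. GC content thus moved with strength, and its part in what was called was not tested.

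**Figure D1:**
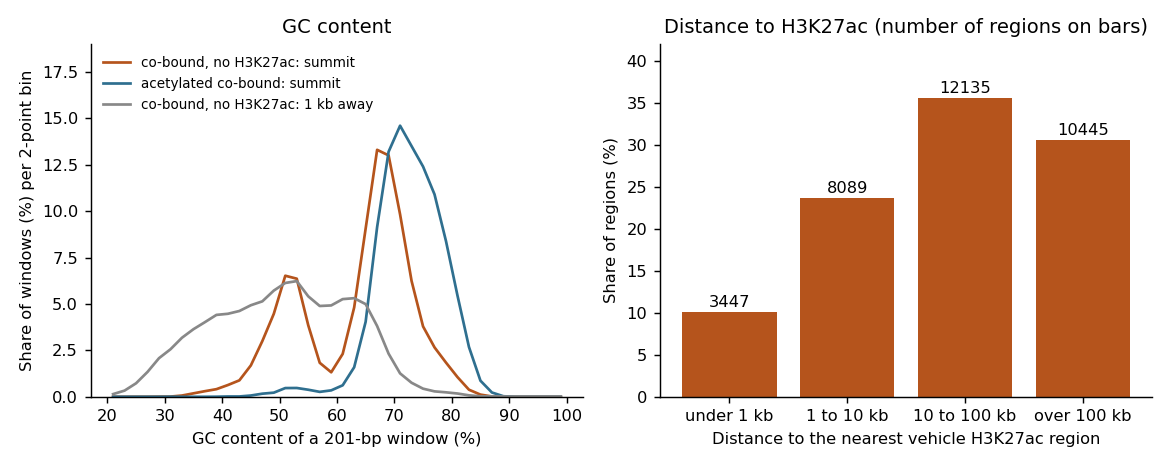
Left, GC content of 201-bp windows at the SREBP2 summits of co-bound regions without H3K27ac (brown), of acetylated co-bound regions (blue) and 1 kb to either side of the former (grey), as the share of windows per 2-point bin. Right, distance from the regions without H3K27ac to the nearest vehicle H3K27ac region. The brown curve has separate peaks on either side of 60%, and 10445 regions lay over 100 kb from H3K27ac.

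The GC box, the ETS site, the E-box and the CTCF core were more frequent at acetylated than at unacetylated summits, and the other motifs searched, the SRE and the ROR element among them, were more frequent at unacetylated ones. The GC box GGGCGG, the binding site of SP-type factors, was present in 32.2% of unacetylated and 60.4% of acetylated co-bound windows, in 30.1% of all SREBP2 vehicle windows and in 10.3% of flanking windows. The ETS site CCGGAAG was found in 2.23% of unacetylated windows, 4.14% of acetylated ones and 2.40% of all, and the E-box CACGTG in 5.02%, 5.72% and 4.72%. The CTCF core AGNNGGC was found in 56.8%, 70% and 55.7%. The half-site AGGTCA, which every exact ROR element contains, was present in 15.3% of unacetylated, 6.95% of acetylated and 17.1% of all windows, and the CCAAT box CCAAT in 9.85%, 7.10% and 10.8%. The AP-1 site TGANTCA had shares of 2.33%, 1.44% and 2.74%, the TEAD site GGAATG of 6.01%, 4.56% and 5.89%, and the GRHL site AACCNGTT of 0.299%, 0.214% and 0.325%. In the windows 1 kb away the last 4 motifs were at 21.0%, 4.71%, 10.2% and 1.01%. All motifs were searched on both strands, and a match is a description of letters, not of binding. Median GC content also differed, at 66.2% in unacetylated and 72.6% in acetylated windows, and its part in the motif shares was not tested.

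Unacetylated co-bound regions were weaker and narrower than acetylated ones. Their median SREBP2 fold was 5.36 (3.10 at the 10th and 14.6 at the 90th percentile), against 12.3 (6.27 and 20.5) in acetylated co-bound regions. The summit held a median of 12 SREBP2 fragments against 31, and the median width was 337 bp against 676 bp. The ranges overlapped widely, and 54.8% of the unacetylated regions passed q of 1e-05, compared with 95.2% of the acetylated ones. SREBP2 regions with neither RORγ nor H3K27ac were weaker still, with a median fold of 3.57 over 51291 regions. The SREBP2 and RORγ summits lay a median of 67 bp apart in unacetylated and 51 bp apart in acetylated regions. In 78.4% of unacetylated regions the summit of the strongest overlapping RORγ region lay inside the SREBP2 region, and elsewhere the overlap met only a flank of a RORγ region.

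Promoters held 6799 of the unacetylated regions, 19.9% (19.5 to 20.4%), against 59.5% (58.9 to 60.1%) of acetylated co-bound regions. The unacetylated share was 33.1% at q of at most 1e-05 and 49.5% with a promoter window of 5 kb to either side of the start. Outside promoters, 40% had their summit in an intron, 29.9% between genes and 10.2% in an exon, where acetylated regions had 18.6%, 8.19% and 13.7%. The median distance to the nearest H3K27ac region was 29846 bp. At the near end, 3447 regions, 10.1%, lay under 1 kb from H3K27ac, and 501 of them, 1.47% of all, had H3K27ac under 1 kb away on both sides. The regions were not spread evenly, since 10388, 30.4%, lay within 1 kb of another one, and neighbours are not independent sites.

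Unacetylated regions formed dense clusters, many of them near chromosome ends. The 100-kb window with the most held 62 of them beside 2 acetylated co-bound regions, on chromosome 14 from 104600001 to 104700000 at KIF26A, a kinesin gene. The next were 56 on chromosome 16 from 1100001 to 1200000 at C1QTNF8 and the somatostatin receptor gene SSTR5, 54 on chromosome 1 from 3400001 to 3500000 at MEGF6, and 53 on chromosome 5 from 1200001 to 1300000 at the telomerase gene TERT and its neighbours SLC6A18 and SLC6A19. A window on chromosome 9 from 138600001 to 138700000 at the potassium channel gene KCNT1 also held 53, and none of its SREBP2 regions was acetylated and co-bound. In all, 515 windows held at least 10 unacetylated regions, 27.9% of the total, and 364 of these windows lay within 5 Mb of a chromosome end. Equally dense windows of acetylated co-bound regions were not counted, so clustering is not shown to be particular to unacetylated ones. The median local background was 3.24 fragments in the TERT window and 2.09 in the SSTR5 window, against 1.34 over all unacetylated regions. It was 1.47 at KIF26A, 1.46 at MEGF6 and below 1.34 at KCNT1. The part of background in the clusters was not tested. Within 5 Mb of an end lay 33.0% of unacetylated and 28.2% of acetylated co-bound regions, but 19.9% of SREBP2 regions with neither mark.

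Chromosomes differed in the balance of the 2 classes. On chromosome 17 unacetylated regions were 42.6% of the co-bound total (1173 and 1583 acetylated), the lowest share, and on chromosome 13 they were 72.1% (1051 and 407), the highest. Chromosome 19, rich in genes, had the highest density at 40.1 unacetylated regions per Mb. Its 2372 unacetylated regions stood beside 2331 acetylated ones, a share of 50.4%, so acetylated regions were nearly as dense there. DNA copy number of this line was not analysed here, and its part in these shares was not tested.

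A small set of unacetylated regions lay on high background. The local background was at least 10 fragments in 70 unacetylated regions and in 2 acetylated co-bound ones. The highest, on chromosome 6 from 58778735 to 58779283, had a background of 213 fragments. It held 289 fragments of SREBP2 with vehicle, 302 with XY018, and 309 fragments of RORγ with each. Its fold was only 1.36, and its GC content was 41.8%. Leaving out these 70 regions left the share with an SREBP2 region with XY018 at 52.1%.

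The values at the edge of the rule are given as a description. The 258 unacetylated regions within 100 bp of an H3K27ac region had a median fold of 4.95, and 36.8% were at promoters. With XY018, 52.3% of them had an SREBP2 region and 63.2% a RORγ region. The 153 acetylated co-bound regions with at most 100 bp of H3K27ac had a median fold of 3.95, with 39.2% at promoters, and these shares were 32% and 46.4%. At this edge the unacetylated regions were thus kept more often, opposite in direction to the 2 classes as a whole. Fold was not matched at the edge, where the unacetylated regions had the higher median, and its part in this order was not tested. On the RORγ side, the 1249 regions with at most 50 bp of RORγ had a median fold of 3.57, and 1009 SREBP2 regions without H3K27ac that missed a RORγ region by at most 50 bp had 3.70.

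The promoters with the strongest unacetylated regions had a GC content between 72.6% and 82.6%. The 10 highest SREBP2 folds at promoters of protein-coding genes, from 30.3 to 36.5, belonged to PXDNL (a peroxidasin relative), CDC14C, ZNF100 (a zinc finger gene), COL6A6 (a collagen VI chain), CRYM (a thyroid hormone-binding protein), AMPH, FAM163A, ZPBP (a sperm protein of egg binding), ZIC5 and GCSAML. The nearest H3K27ac region lay 685 bp away at ZIC5 and 1498371 bp away at ZNF100, with the others in between. Several of these were internal transcript starts, among them that of PXDNL, 399772 bp from the outermost start of its gene.

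At PXDNL, on chromosome 8 from 52321153 to 52322233, the SREBP2 summit held 76 fragments (59.9 to 95.1, exact Poisson 95% interval) with vehicle and 64 (49.3 to 81.7) with XY018. Its RORγ summit held 79 (62.5 to 98.5) and 93 (75.1 to 114). At ZIC5, on chromosome 13 from 100621644 to 100624470, SREBP2 had 79 (62.5 to 98.5) and 44 (32.0 to 59.1) fragments, and RORγ had 79 (62.5 to 98.5) and 69 (53.7 to 87.3). The SREBP2 intervals did not overlap at ZIC5 and overlapped at PXDNL, and the RORγ intervals overlapped at both. ZPBP, on chromosome 7 from 50132409 to 50133089, had 74 (58.1 to 92.9) SREBP2 fragments with vehicle and 77 (60.8 to 96.2) with XY018.

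Fragments were compared between libraries over the genome-wide background, which for SREBP2 was 1.028 fragments with vehicle and 1.214 with XY018. For RORγ it was 0.787 and 0.712. On this scale the XY018 to vehicle ratio of SREBP2 lay between 0.472 (ZIC5) and 0.881 (ZPBP) at the 10 promoters. That of RORγ lay between 0.839 (ZNF100) and 1.30 (PXDNL). SREBP2 was thus lower with XY018 at all 10, also when scaled by tags per kb (0.523 to 0.976), and RORγ lay on both sides of 1. The 10 were ranked on SREBP2 vehicle fold, and values ranked highest in 1 library tend to be lower in another. The part of that ranking in the SREBP2 ratios was not tested, here or at other regions picked by vehicle fold. Of the 10, CRYM had an H3K27ac region with XY018, with 11 fragments (5.49 to 19.7), and the other 9 had none.

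**Figure D2:**
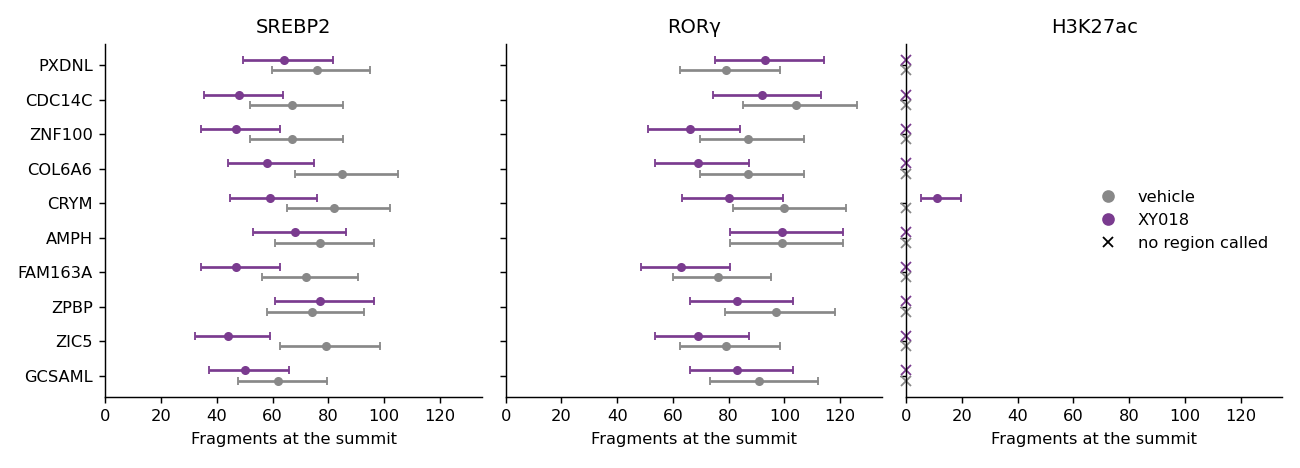
Fragments at the summit of the 10 promoter regions with the highest SREBP2 vehicle fold, with vehicle (grey) and XY018 (purple), for SREBP2, RORγ and H3K27ac. Points are single libraries, bars exact Poisson 95% intervals and crosses regions not called. RORγ points lie at 63 to 104 fragments, and CRYM alone has an H3K27ac point.

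Away from promoters, the 4 highest folds, from 37.2 to 39.5, all lay above the highest promoter fold. The first lay in an intron on chromosome 10 from 38069459 to 38069888, with 79 and 64 SREBP2 fragments (vehicle, then XY018) and 83 and 77 RORγ fragments. The others lay in introns on chromosome 8 from 77590147 to 77590626 and on chromosome 1 from 19043033 to 19044034, and between genes on chromosome 3 from 176079914 to 176080589. Their SREBP2 fragments were 81 and 52, 80 and 53, and 86 and 67. GC content was 71.6%, 80.6%, 80.6% and 69.7% in the same order, so that these sites too were GC-rich, and the SREBP2 ratio over background was between 0.544 and 0.686.

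Of 20090 protein-coding genes, 3209 (16.0%) had an unacetylated co-bound region at a promoter, and 10042 (50%) an acetylated one. Among the 6669 genes with no H3K27ac at any promoter, 1810 (27.1%) had an unacetylated co-bound region. The gene lists were read against these shares.

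Developmental transcription factor genes exceeded the 16.0% and the 27.1%. Of 110 homeobox and paired box genes outside the HOX clusters, which pattern the embryo, 70 (63.6%) had an unacetylated co-bound promoter region, and of the 66 of them without promoter H3K27ac 57 (86.4%) had one. Of 39 HOX genes the counts were 17 (43.6%) of all and 9 of 14 (64.3%) of those without H3K27ac. Of 90 SOX, FOX, TBX and GATA genes they were 37 (41.1%) and 27 of 41 (65.9%). In the same order, 44 (40%), 21 (53.8%) and 44 (48.9%) of the genes had an acetylated co-bound promoter region, against 50% of all. In the HOX and SOX lists the acetylated kind was thus the more frequent one. The median GC content of their unacetylated regions was 72.6%, 71.1% and 75.6%, against 69.7% for all protein-coding promoters with such a region.

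In these lists the strongest homeobox promoter regions were those of LHX3 (pituitary and motor neuron factor), PROX1 (lymphatic factor), PAX5 (B-cell factor) and IRX1. LHX3, on chromosome 9 from 139096152 to 139097390, had 60 and 40 SREBP2 fragments (vehicle, then XY018) and 52 and 44 RORγ fragments. PROX1, on chromosome 1 from 214155908 to 214156770, had 70 and 46, and 79 and 70. PAX5, on chromosome 9 from 37002245 to 37003118, had 88 and 83, and 76 and 83, and an H3K27ac region of 16 fragments with XY018. All, ranked on vehicle fold, had fewer SREBP2 fragments with XY018, and IRX1, with 98 and 81, had the most. Of the HOX genes, HOXA9 had 66 and 44 SREBP2 fragments, HOXD12 39 and 23, HOXD1 35 and 21, and HOXD3 34 and 19. The nearest H3K27ac region was 487 bp from the HOXA9 region and at least 19324 bp from the HOXD ones. Of the third list, FOXC2 had 70 and 58 SREBP2 fragments, FOXR1 51 and 42, SOX5 51 and 25, and SOX8 54 and 52, and their RORγ fragments were 110 and 77, 61 and 55, 52 and 56, and 110 and 61.

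Genes of excitable cells stood at similar levels. Of 140 voltage-gated and related ion channel genes, 67 (47.9%) had an unacetylated co-bound promoter region, and of 78 without promoter H3K27ac 51 (65.4%) did. Of 50 glutamate and GABA receptor genes 31 (62.0%) did, and of 34 without H3K27ac 24 (70.6%). An acetylated co-bound promoter region was present at 62 (44.3%) of the channel genes and 16 (32%) of the receptor genes. KCNA3, a voltage-gated potassium channel of lymphocytes, on chromosome 1 from 111216428 to 111218171, had 74 and 62 SREBP2 fragments and 84 and 80 RORγ fragments. CACNG7 had 51 and 30 SREBP2 fragments, KCNK10 49 and 47, and KCNK9 60 and 51, and these 3 each had an H3K27ac region of 9 to 13 fragments with XY018. GABRD, the delta subunit of GABA-A receptors, had 77 and 69 SREBP2 fragments at a region 8563 bp from the gene's outermost start, and the glutamate receptor genes GRIK4 and GRM8 had 41 and 23, and 49 and 29.

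Large gene clusters differed from each other. None of the 53 clustered protocadherin genes, which encode neuronal adhesion proteins, had promoter H3K27ac, and 13 (24.5%) had an unacetylated co-bound region, led by PCDHA10 (35 and 26 SREBP2 fragments), PCDHA11 (28 and 30), PCDHAC2 (25 and 17) and PCDHGC4 (23 and 9). That share was near the 27.1% of all genes without promoter H3K27ac. Of 399 olfactory receptor genes 2 (0.501%) had one, OR2C3 with 76 and 73 SREBP2 fragments and OR3A2 with 28 and 23. Of 240 zinc finger genes on chromosome 19, 127 (52.9%) had promoter H3K27ac and 49 (20.4%) had an unacetylated co-bound region, and of the 113 without H3K27ac 42 (37.2%) did. ZNF100 had 67 and 47 SREBP2 fragments, ZNF471 55 and 35, ZNF490 52 and 40, and ZNF536 67 and 57.

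Most genes of cholesterol synthesis were co-bound in acetylated chromatin. Of 21 cholesterol synthesis genes 2 (9.52%) had an unacetylated co-bound region in a promoter window and 16 (76.2%) an acetylated one, and 20 (95.2%) had promoter H3K27ac. Of all 20090 protein-coding genes, 10042 (50%) had an acetylated one and 13421 (66.8%) promoter H3K27ac. The sterol genes thus also had promoter H3K27ac more often, and its part in their acetylated share was not tested. The unacetylated regions were those of MVK and MVD, mevalonate kinase and decarboxylase, which lay 8039 and 8879 bp from the genes' outermost starts and 262 and 772 bp from H3K27ac. The SREBP2 summit at MVK held 12 fragments (6.20 to 21.0) in the vehicle and 10 (4.80 to 18.4) in the XY018 library, and that at MVD 18 (10.7 to 28.4) with vehicle and no region with XY018. Of 15 SREBP target genes outside the pathway 1 (6.67%) had one. Of 15 clock genes and RORγ targets PER1 (6.67%) had one, 11379 bp from its outermost start, with 18 and 8 SREBP2 fragments. Counts this small cannot be told apart from the 16.0% of all protein-coding genes. The 4 genes with such a region in these 3 lists also had promoter H3K27ac, so none of these lists had a gene with unacetylated co-binding and an otherwise unacetylated promoter.

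Cytosolic ribosomal protein genes lay below the 16.0% of all protein-coding genes, and the short lists of proteasome and cell type genes lay on both sides of it. None of 80 cytosolic ribosomal protein genes had an unacetylated co-bound region, which allows a share of up to 3.75%, although 30 had an acetylated one and 77 had promoter H3K27ac. Of 39 proteasome genes 3 (7.69%) had one, a count too small to be told apart from 16.0%. The strongest, at a start shared by PSMA1 and PDE3B, had 22 and 20 SREBP2 fragments. PSMA8, a testis subunit, had 18 and 17, and PSMC6 had 6 with vehicle and no region with XY018. Of 15 basal breast genes 2 (13.3%) had one, ITGB4 (28 and 19) and KRT14 (11 with vehicle only), and of 13 luminal and hormone receptor genes 3 (23.1%) did, among them ESR1 (25 and 9) and PGR (35 and 31). Of 12 genes of other cell types 4 (33.3%) had one, among them CDH5, COL1A1 and GFAP with 24, 13 and 12 SREBP2 fragments with vehicle, and each of the 4 also had promoter H3K27ac. The ESR1 region lay 150929 bp from the gene's outermost start and 109 bp from H3K27ac, and the PGR region 348881 bp from any.

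**Figure D3:**
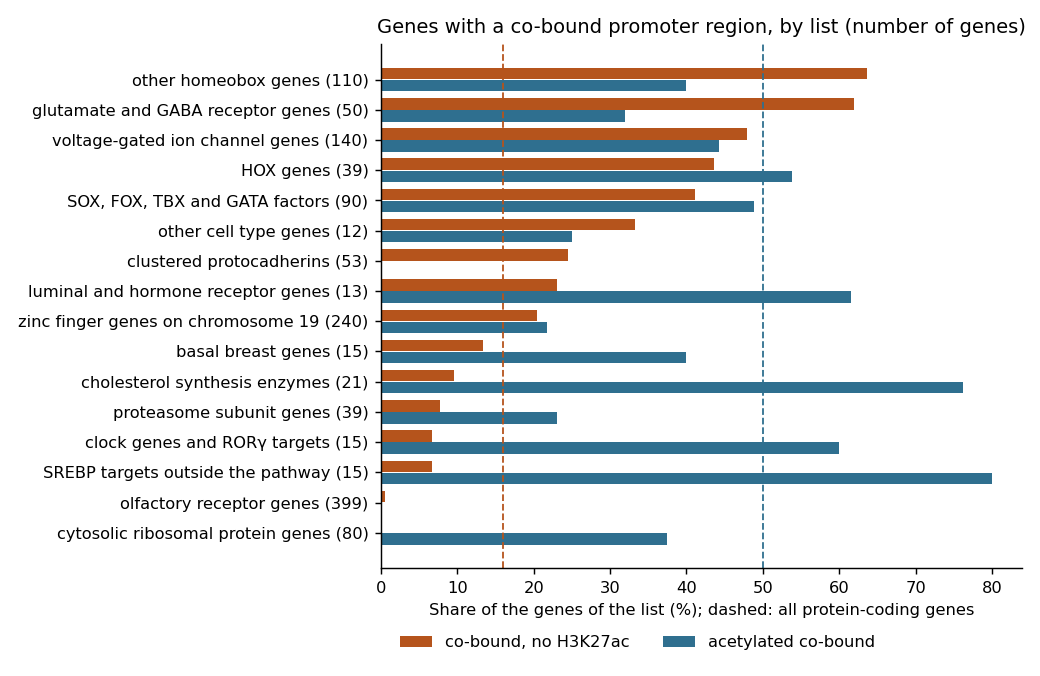
Share of the genes of each list (number of genes in brackets) with a co-bound promoter region without H3K27ac (brown) and with an acetylated co-bound region (blue). Dashed lines give the same shares over all 20090 protein-coding genes, 16.0% and 50%. Homeobox, receptor and channel genes lie to the right of the brown line, and sterol and clock genes to the left of it. The sterol and clock counts are too small to be told apart from the 16.0%.

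With XY018, 17799 unacetylated regions, 52.2% (51.6 to 52.7%), overlapped an SREBP2 region of the XY018 library, against 39.8% of all SREBP2 vehicle regions and 93.7% (93.4 to 94.1%) of acetylated co-bound regions. For RORγ 22282, 65.3% (64.8 to 65.8%), were still called, against 76.4% of all co-bound regions and 92.5% (92.2 to 92.9%) of acetylated ones. The XY018 lists were shorter, with 69700 SREBP2 regions against 117441 with vehicle, and 129954 RORγ regions against 167264. The regions were also chosen by vehicle calls of both factors, so a kept share can only lie at or below 100%. The part of list length and of this choice in the kept shares was not tested. Both factors were called in 16018 regions, 47.0%, neither in 10053, 29.5%, RORγ without SREBP2 in 6264, 18.4%, and SREBP2 without RORγ in 1781, 5.22%. Regions that kept both had a median vehicle fold of 9.86 and those that kept neither 3.62, so the calls moved with strength.

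Regions were therefore compared at like vehicle fold by dividing all co-bound regions into 10 equal classes of it. Strength was matched only in part, because the fold was measured in 1 library. Width, a median of 337 bp in unacetylated and 676 bp in acetylated regions, was not matched, and its part in the kept shares was not tested. Averaged with the unacetylated regions' weights, 52.2% of unacetylated and 64.5% of acetylated regions kept SREBP2, a difference of -12.4 percentage points (-13.6 to -11.1). For RORγ, in classes of RORγ fold, the shares were 65.3% and 79.3%, a difference of -14.0 points (-14.9 to -13.0). Without classes the differences were -41.6 and -27.2 points. The SREBP2 gap was widest in the third class, with folds of 3.95 to 4.93, where 26.1% of 5181 unacetylated and 54.8% of 573 acetylated regions were kept. In the highest class, with folds of at least 18.1, all 1685 unacetylated and all 4068 acetylated regions were kept. At q of at most 1e-05 the SREBP2 difference was -11.9 points and that of RORγ was reduced to -2.91 points (-3.60 to -2.21). In the highest RORγ class 96.7% of 2609 unacetylated and 99.6% of 3144 acetylated regions were kept.

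**Figure D4:**
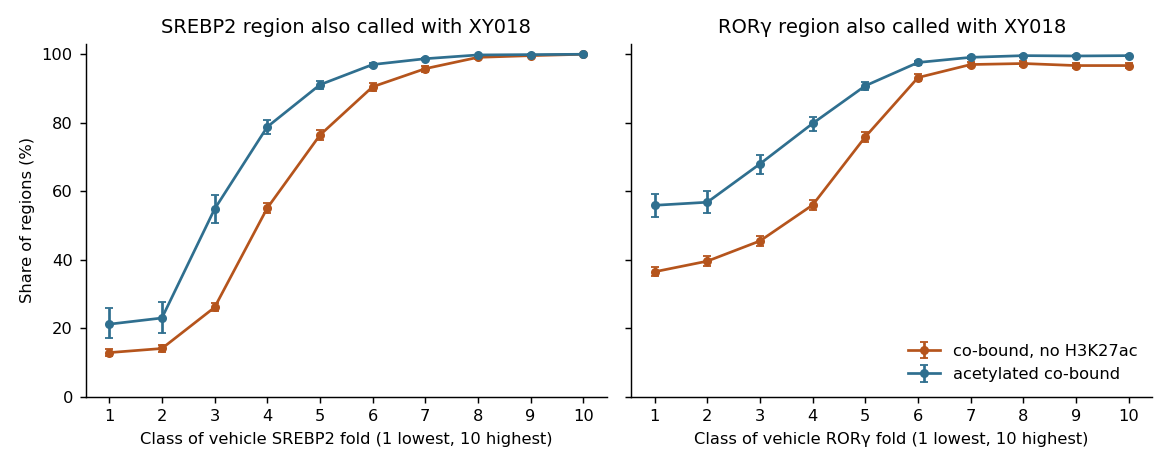
Share of co-bound regions called again with XY018 for SREBP2 (left) and RORγ (right), by class of the factor's own vehicle fold, for regions without H3K27ac (brown) and acetylated regions (blue). Bars are exact binomial 95% intervals. The brown points lie below the blue ones in classes 1 to 9 of both panels, and in the highest SREBP2 class both are at 100%.

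The kept share rose from weak to strong unacetylated regions and differed by place. In 10 equal classes of SREBP2 fold it was 13.0% in the lowest (median fold 2.84) and 99.8% in the highest (median fold 18.0). CpG-dense promoter regions kept SREBP2 in 91.6% (90.7 to 92.5%) of 3580 cases and RORγ in 94.5%, and CpG-dense regions elsewhere in 82.2% (81.0 to 83.3%) of 4293 cases and 88.4%. At the other end, the 23024 regions that were neither at a promoter nor CpG-dense kept SREBP2 in 39.6% (39.0 to 40.2%) and RORγ in 55.7%. These groups also differed in median fold, from 12.3 to 4.35. By GC content, 11.8% of regions under 60% kept SREBP2, against 70.8% of the others. By distance to H3K27ac, the SREBP2 share was 53.2% under 1 kb and 50.5% over 100 kb.

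Regions with an exact SRE kept SREBP2 less often than the rest, at 23.7% of 716 (20.7 to 27%) against 52.8%. They were also weaker, with a median fold of 3.80 against 5.42, and less GC-rich, at a median of 52.7%. Of the 38 regions with a ROR element 47.4% kept RORγ and 31.6% (17.5 to 48.7%) kept SREBP2. The 10987 regions with a GC box, of median fold 8.38, kept SREBP2 in 72.8%. The part of strength in these differences was not tested.

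Where a region was called with both treatments, the SREBP2 summit was lower over background with XY018 in 92.7% of 17799 unacetylated pairs. The median ratio was 0.612 (0.391 at the 10th and 0.941 at the 90th percentile), and 0.614 (0.423 and 0.831) in 21954 acetylated pairs. Lower by more than 1.5 times were 61% of unacetylated pairs, against 61.4% of all 46730 SREBP2 pairs, a like share. Scaled by tags per kb, which takes out the difference in fragment length between the libraries, 88.2% of the unacetylated pairs were lower, the median ratio was 0.678, and 47.9% of unacetylated and 47.1% of all pairs were lower by more than 1.5 times. RORγ ratios had a median of 1.08 in 22282 unacetylated and 1.01 in 21670 acetylated pairs. Lower by more than 1.5 times were 8.69%, against 8.57% of all pairs, and higher by more than 1.5 times 15.3%, against 13.3% of all pairs. Pairs leave out the regions lost with XY018, and in weak pairs a summit has to exceed the calling threshold in both libraries.

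Pairs with at least 40 fragments in both libraries together were therefore compared in classes of that sum. The XY018 library gave a mean of 42.4% of the SREBP2 fragments in 7570 unacetylated regions and 41.9% in acetylated ones, where equal enrichment over background would give 54.1%. For RORγ it gave 47.6% in 7277 unacetylated regions and 47.3% in acetylated ones, where equal enrichment would give 47.5%. Strong unacetylated and acetylated sites thus differed by 0.563 and 0.273 percentage points. The 54.1% includes the longer fragment length of the SREBP2 XY018 library, 205 bp against 185 bp with vehicle. By tags per kb, 5.92 with XY018 and 5.56 with vehicle, the SREBP2 share at equal enrichment would be lower. Pairs with summits within 200 bp of each other, a limit added after the pairs were plotted, had median ratios of 0.605 for SREBP2 and 1.11 for RORγ.

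**Figure D5:**
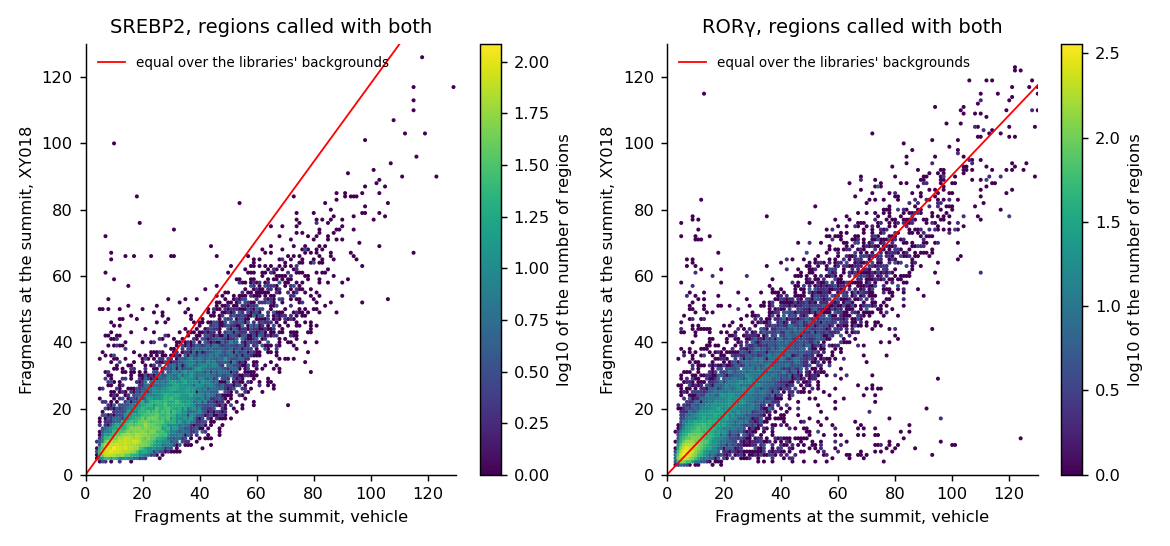
Fragments at the SREBP2 (left) and RORγ (right) summit with vehicle and with XY018 in co-bound regions without H3K27ac that were called with both treatments. Colour gives the log10 number of regions at each pair of values, and the red line marks equal enrichment over the libraries' backgrounds. Most SREBP2 regions lie below the line and RORγ regions lie around it, and 18 and 43 regions beyond 130 fragments are not drawn.

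The unacetylated promoter regions with the highest SREBP2 folds in the XY018 library had a GC content between 67.7% (GABRD) and 81.1% (KCNA3). Of those called for both factors and without H3K27ac with XY018, the highest SREBP2 XY018 folds belonged to GABRD, OR2C3, KCNA3, DAZL (a germ cell RNA-binding protein), PXDNL, ZPBP, CR1 (a complement receptor) and SMIM17. CR1, on chromosome 1 from 207669554 to 207670015, had 58 (44 to 75) SREBP2 fragments with vehicle and 63 (48.4 to 80.6) with XY018. SMIM17, on chromosome 19 from 57154056 to 57155072, had 49 (36.3 to 64.8) and 53 (39.7 to 69.3). Fragments with vehicle and XY018 lay within each other's intervals at these genes, and the ratios over background of the 8 regions were 0.709 to 0.920. Scaled by tags per kb, the ratios of CR1 and SMIM17 were 1.02 and 1.01 and those of the other 6 stayed under 1. These 8 were ranked on XY018 fold, and over all unacetylated pairs the median ratio over background was 0.612. The part of that ranking in their ratios was not tested.

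The strongest SREBP2 calls lost at promoters had 23 to 29 SREBP2 fragments with vehicle. Of the regions with no SREBP2 region with XY018, the highest vehicle folds, 11.8 to 13.3, were at ARHGAP4 (a GTPase-activating protein), ABCC9 (a sulfonylurea receptor), PRDM16 (a brown fat regulator), TMEM190, SLC39A12 (a zinc transporter) and PCBP3. SREBP2 fragments with vehicle were 26 (17.0 to 38.1) at ARHGAP4, 27 (17.8 to 39.3) at ABCC9, 26 at PRDM16, 29 at TMEM190, 24 at SLC39A12 and 23 at PCBP3. RORγ fragments with vehicle were 5 to 10 at these genes, around the median of 7 over the whole RORγ vehicle list. RORγ was still called with XY018 at ARHGAP4, ABCC9, TMEM190 and SLC39A12, with 6 to 8 fragments, and not at PRDM16 and PCBP3. GC content was 61.2% to 69.7%.

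H3K27ac with XY018 was found at 2188 unacetylated regions, 6.41% (6.16 to 6.68%), against 5.68% of all SREBP2 vehicle regions without vehicle H3K27ac, and the share was 11.1% at q of at most 1e-05. These lay closer to vehicle H3K27ac than the rest, at a median of 3396 bp against 34400 bp, and 28.6% of them lay under 1 kb from it. The share fell from 18.2% of regions under 1 kb from H3K27ac to 1.35% (1.14 to 1.59%) of those over 100 kb away. The median fold of the H3K27ac regions over them was 5.54, against 6.09 for the whole XY018 list. In the other direction, 3179 acetylated co-bound regions, 13.6%, had no H3K27ac region with XY018. The deposited XY018 H3K27ac list was longer, with 105371 regions against 95099 with vehicle. It held 69.8% of calls 50001 to 100000 by peak number, where the vehicle list held 62.0%. The part of this unequal listing in H3K27ac called only with XY018 was not tested.

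In 174 of the 2188 regions, 7.95% (6.85 to 9.17%), the H3K27ac region with XY018 also met an H3K27ac region of the vehicle library. There the XY018 region shared at least 1 bp with the SREBP2 region and with a vehicle H3K27ac region beside it. The other 2014 met no vehicle H3K27ac region. The median H3K27ac fold was 9.03 in the former and 5.36 in the latter.

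The strongest such promoter regions were all of the first kind. The highest H3K27ac folds with XY018, 47.4 to 126, were at WDR90, PRXL2B, CLIP2 (a microtubule-binding protein), MED16 (a Mediator subunit), TBC1D9B and HYAL2 (a hyaluronidase), and each lay 5 to 417 bp from a vehicle H3K27ac region. At WDR90, on chromosome 16 from 716354 to 717026, the nearest vehicle H3K27ac region lay 171 bp from the SREBP2 region. The XY018 H3K27ac region held 279 fragments (247 to 314) at its own summit, which can lie outside the SREBP2 region. Fragments of the neighbouring vehicle H3K27ac region are not given here, so the 279 cannot be read as a gain. The SREBP2 region, of 14 fragments (7.65 to 23.5), was not called with XY018. At all 6 promoters the XY018 region also met a vehicle H3K27ac region. H3K27ac regions with XY018 that met no vehicle region lay both near and far from vehicle H3K27ac. Near it, they had 19 fragments at SOX8 (177 bp away), 11 at HOXA9 (487 bp), 10 at ZNF536 (613 bp), 11 at FOXC2 (642 bp) and 31 at PSMC6 (759 bp). At PAX5, IRX1, HOXD1, FOXR1 and KCNK10, at least 25748 bp away, they had 9 to 16 fragments.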

How the data were processed

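HCC70 cells were profiled by ChIP-seq with 6 immunoprecipitated libraries, 1 per antibody and treatment. The 6 input samples were not used here. The regions and gene lists were chosen with earlier results of these data known.

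Per the submitters' processing notes, Bowtie2, MACS2 2.1.0 and bedtools were used with hg19, whereas the methods of the study name BWA as aligner, and the sample labels name a paired-end kit where the methods give single-end reads. The authors deposited 1 peak list per library, with a ratio (fold enrichment at the summit), −log10 p and −log10 q values, and a display score that repeats the −log10 p and was not used. All lists reach −log10 p values near 2. No source used here says how the H3K27ac peaks were filtered, and their numbers reach 245055 with vehicle and 241397 with XY018.

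From the fold and −log10 p, the fragments at each summit and the local background were recovered under the Poisson model of MACS, to within 0.0005 in −log10 p. The genome-wide background was the most common local one, and the smallest region width (185 to 205 bp) as the fragment length. Overlaps needed 1 bp. GENCODE 44 lifted to GRCh37 gave genes. Differences in kept share were averaged over 10 classes, with intervals from binomial variances over regions. No p-value was computed, as each group held 1 library.

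Genes were named by rule: 10, 8, 6 and 6 promoter regions leading each ranking, 4 regions elsewhere, and of each gene list all genes with a region where these were at most 5, otherwise the 4 of highest SREBP2 fold. Some genes under this rule are not reported here. Sequences are those of the 3 highest folds per set outside exons and chromosome 8. The 2 regions of highest background were ranked after the values were seen. Scripts used Python 3.11.15 with NumPy 2.4.6, pandas 2.3.3, SciPy 1.17.1 and pysam 0.24.0, and were tested on simulated data.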

Additional observations from a re-analysis of the deposited data

How the results depend on the processing

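No paired analysis was possible because each group held 1 library. Of 37 alternative values, 17 stayed within the interval or 1.5 times the count of the value reported, 20 moved and none changed direction. The causes were not tested, except that stricter thresholds shorten the lists by construction. The scalings, the 50 classes, the CpG-dense classes, the low-background regions and the limit on summit distance were chosen after seeing the data.

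At q of at most 0.01, 22585 regions met the rule, of which 63.8% kept SREBP2, 73.6% kept RORγ, 7.88% had H3K27ac with XY018 and 24.7% lay at promoters. At q of at most 1e-05 the values were 12413 regions, 76.3%, 87.2%, 11.1% and 33.1%, and the class-averaged RORγ difference was -2.91 points. An overlap of 50% of the shorter region moved the SREBP2 kept share to 54.4%. With no H3K27ac within 1000 bp, 5.09% had H3K27ac with XY018 and 18.8% lay at promoters. A promoter window of 5 kb to either side held 49.5%.

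The difference in SREBP2 kept share was -41.6 points with no classes, -9.59 in classes within promoters and other sites, and -10.1 within CpG-dense and other sites. For RORγ it was -27.2 and -12.8 points in the first 2 of these. The median SREBP2 ratio was 0.678 scaled by tags and 0.605 with close summits.

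The median unacetylated summit held 12 SREBP2 fragments, which limits comparisons of single regions, and an H3K27ac region left out of the deposited list cannot be told apart from absent acetylation.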
